A study of Mus musculus with 4 samples.

Results

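Resident macrophages of the mouse peritoneal cavity are set apart by the transcription factor Gata6, and 9 genes around it are described here: Gata6, Serpinb2, Icam2, Selp, F5, F10, Cxcl13, Adgre1 and Mpeg1. They were matched by symbol to the platform annotation, counting only probe sets with a single gene symbol. This gave 10 probe sets for 7 of the 9 genes, out of 6137 genes with such a probe set, and F5 and Cxcl13 are not analysed here. Adgre1 and Mpeg1 are general macrophage genes and served as the frame for the others.

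The study compared peritoneal cells of wild-type (+/+) mice with those of C/EBPε-deficient (-/-) mice, which lack a transcription factor of granulocyte and macrophage maturation encoded by Cebpe. Both genotypes were of 129/SvEv x NIH Black Swiss background, 6 to 8 weeks old, with 4 mice each, and both had received 2 ml of 4% thioglycollate broth, a sterile irritant, into the peritoneum 24 h before lavage. The sample text on how cells were combined breaks off, so whether mice were pooled is not given in the sources used here. Total RNA of the mixed exudate was put on Affymetrix arrays of 2 types, A and B, which carry different probe sets, with 1 array per genotype and type and 4 in all. No array therefore has a replicate, no test was possible, and every difference below compares 2 arrays. By the submitters' cytospin counts of 100 to 200 cells, monocytes made up about 30%, neutrophils 60% and lymphocytes 7 to 10% in both genotypes.

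As background, resident peritoneal macrophages are seeded before birth and maintain themselves locally. Retinoic acid from the tissue around them induces Gata6, which drives the genes that distinguish them from other macrophages. After an irritant such as thioglycollate they become hard to recover by lavage, while neutrophils and then monocytes enter from the blood. Several of the genes are not theirs alone: Serpinb2 is also made by activated monocytes, Selp by platelets and endothelium, and Icam2 by endothelium and lymphocytes.

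Among the genes measured, Serpinb2 had the lowest ratio and Mpeg1 the highest, each by its probe set on array type B. The 250 bases before the transcription start are shown for these 2 genes, for Selp as a gene with a lower reading and for F10 as a gene with a higher one. They come from RefSeq on build GRCm38.p6, all on the + strand, at chr1:107511260-107511509 (Serpinb2, the downstream of its 2 listed starts), chr1:164115014-164115263 (Selp), chr8:13037058-13037307 (F10) and chr19:12460520-12460769 (Mpeg1). Capitals mark GATA letters (AGATAA or TGATAA or AGATAG or TGATAG) and the C/EBP core TTNNGNAA, searched on both strands.
Serpinb2: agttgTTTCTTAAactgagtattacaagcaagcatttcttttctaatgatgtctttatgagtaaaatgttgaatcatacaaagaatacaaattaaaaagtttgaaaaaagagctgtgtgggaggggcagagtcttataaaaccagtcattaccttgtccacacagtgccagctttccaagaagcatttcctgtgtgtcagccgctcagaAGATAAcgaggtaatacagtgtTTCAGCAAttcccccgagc
Selp: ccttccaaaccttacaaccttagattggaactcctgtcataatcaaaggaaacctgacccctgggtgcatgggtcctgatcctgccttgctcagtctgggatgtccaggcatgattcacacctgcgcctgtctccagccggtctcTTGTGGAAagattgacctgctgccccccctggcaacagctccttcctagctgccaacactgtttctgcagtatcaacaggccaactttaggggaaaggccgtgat
F10: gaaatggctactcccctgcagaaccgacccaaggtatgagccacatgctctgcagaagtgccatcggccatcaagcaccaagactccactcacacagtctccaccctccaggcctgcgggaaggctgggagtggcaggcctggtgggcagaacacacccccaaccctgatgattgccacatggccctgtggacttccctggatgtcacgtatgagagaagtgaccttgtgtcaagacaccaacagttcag
Mpeg1: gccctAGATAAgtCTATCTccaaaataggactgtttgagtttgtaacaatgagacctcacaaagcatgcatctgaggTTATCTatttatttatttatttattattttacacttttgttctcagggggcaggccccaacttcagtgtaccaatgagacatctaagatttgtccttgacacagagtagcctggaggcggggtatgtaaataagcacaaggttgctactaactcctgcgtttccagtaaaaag

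The Serpinb2 window held 1 GATA match, whose first letter lay 41 bases before the start, and 2 C/EBP core matches, at 245 and 19 bases. The window of the upstream Serpinb2 start, which overlaps this one, held no GATA match and 2 core matches. Selp held 1 core match at 105 bases. Mpeg1 held 3 GATA matches, at 245, 237 and 173 bases, and no core match, and F10 held neither. Such letters are common: of 32851 promoter windows of this length, 26.5% held a GATA match, 36.8% a core match and 11.8% both. The GATA letters were thus present before Serpinb2, the gene with the lowest ratio, and before Mpeg1, the one with the highest. A match says only that the letters are there. The promoter table listed 6 of the 9 genes.

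Values are the deposited intensities, in arbitrary units. The 2 arrays of a type were brought to a common mean, with factors of 0.9998 to 1.0002, so the readings printed are as deposited. The signal floor was the median reading of the type, 1036.5 on A and 690.1 on B, and a ratio was taken only where both arrays were above it. Where 1 genotype was at or below the floor, the other gave a bound against the floor. Such bounds are worded below as "at least", which leaves out the error of the brighter reading. Repeat probe sets of a gene differed in log2 ratio with an SD of 0.28 (215 genes) where the dimmer array was at 3 times the floor or more, and 0.47 (94 genes) below that. The 95% intervals given below are 1.96 times these SDs on either side. They cover disagreement between probe sets and no spread between mice. A level of one probe set is not compared with that of another, since probe sets differ in brightness, and no gene is ranked for a like pattern, since each probe set has 1 pair of readings. No probe set carried the symbol Cebpe, so the genotype labels were not checked against the targeted gene.

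Gata6, the transcription factor of resident peritoneal macrophages, read lower in deficient cells by both of its probe sets. On type B it read 3286 in wild-type cells and 1898 in deficient ones, a log2 ratio of -0.79 (1.73-fold lower, 95% interval -1.72 to 0.13). On type A (C80134_rc_at) it read 2170 in wild-type cells and 972, just under the floor, in deficient cells. That gives a bound of at least 2.09-fold lower, or -1.07 on the log2 scale. No interval is given for this bound, since the repeat SDs come from probe sets above the floor on both arrays. Bounds of 2-fold or more in that direction were 8.24% of the 631 probe sets of type A that were above the floor on 1 array only. In wild-type cells the 5 resident genes with a probe set, Gata6, Serpinb2, Icam2, Selp and F10, were all above the floor. That floor is only the median reading of the type, and 3131 of all 6137 genes were above it in both genotypes. For Gata6 the wild-type array was the brighter one on both types, at 4.76 and 2.09 times the floor. The interval on B includes 0, and readings this near the floor carry the larger error.

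Serpinb2 encodes plasminogen activator inhibitor type 2, a serpin that blocks urokinase and is abundant in resident peritoneal macrophages. It read 17030 in wild-type cells and 5338 in deficient ones (x16490_s_at, type B), well above the floor in both. The ratio was 3.19-fold lower, or -1.67 on the log2 scale (95% interval -2.23 to -1.12). Only 28 of 2953 measured probe sets of type B, 0.948%, were as low or lower, and 15 of the 866 that reached 10 times the floor. Serpinb2 was the single gene of the 7 with a ratio of 2-fold or more. Over all 3131 genes with a ratio, 3.67% were lower by that much and 3% higher.

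**Figure D1:**
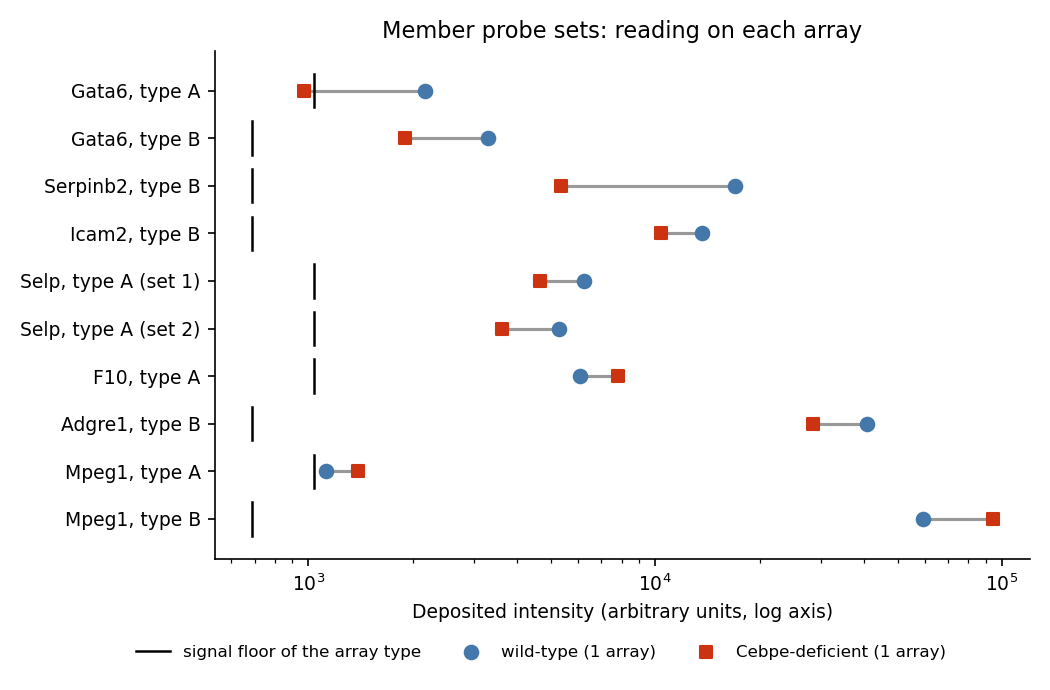
Deposited intensity (arbitrary units, log axis) of the 10 member probe sets on the wild-type array (blue circles) and the Cebpe-deficient array (red squares) of their type, 1 array each, with the floor of the type as a black tick; set 1 and set 2 are the probe sets of Selp. The gap is widest for Serpinb2, from 17030 to 5338, the deficient reading of Gata6 on type A lies under the floor, and F10 and both probe sets of Mpeg1 read higher in deficient cells.

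The 2 adhesion genes read slightly lower in deficient cells. Selp encodes P-selectin, which captures leukocytes that carry its ligand Selplg. Its first probe set (P-Select_at, type A) read 6249 in wild-type cells and 4646 in deficient ones, a log2 ratio of -0.43 (95% interval -0.98 to 0.12). Its second (m87861_s_at, type A) read 5294 and 3625, a ratio of -0.55 (-1.10 to 0.01). The probe sets of Selp differed by 0.12 log2 units, less than the SD between repeat probe sets. Icam2, a ligand of the integrin LFA-1, read 13676 and 10366 (x65490_at, type B), a ratio of -0.40 (-0.95 to 0.15). Each of these intervals reaches 0. On type A 16.6% of measured probe sets were as low as the first Selp probe set or lower, and on type B 18.8% as low as Icam2.

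Coagulation genes are part of the resident programme, and F10 is the one measured. F10, which encodes the zymogen of factor Xa, the protease that activates prothrombin, read 6088 in wild-type cells and 7807 in deficient ones (AA734591_at, type A). Its log2 ratio of 0.36 (95% interval -0.19 to 0.91) was the only one above 0 among the genes other than the general macrophage markers. F5, its cofactor, lies beside Selp on chromosome 1, with a non-coding gene, Gm16548, between them in the RefSeq table.

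The 2 general macrophage genes had ratios on opposite sides of 0. Adgre1, which encodes an adhesion receptor of the macrophage surface, read 40784 in wild-type cells and 28475 in deficient ones (x93328_s_at, type B), a log2 ratio of -0.52 (95% interval -1.07 to 0.04). Mpeg1, the gene of the pore-forming protein perforin-2, read 59238 and 94002 on type B, a ratio of 0.67 (0.11 to 1.22). The deficient value of Mpeg1 was the highest reading of that array. Its probe set on type A (L20315_rc_at) was close to the floor, at 1123 and 1393, with a ratio of 0.31 (-0.62 to 1.24). Both Mpeg1 probe sets thus read higher in deficient cells, with a gap of 0.36 between their ratios.

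**Figure D2:**
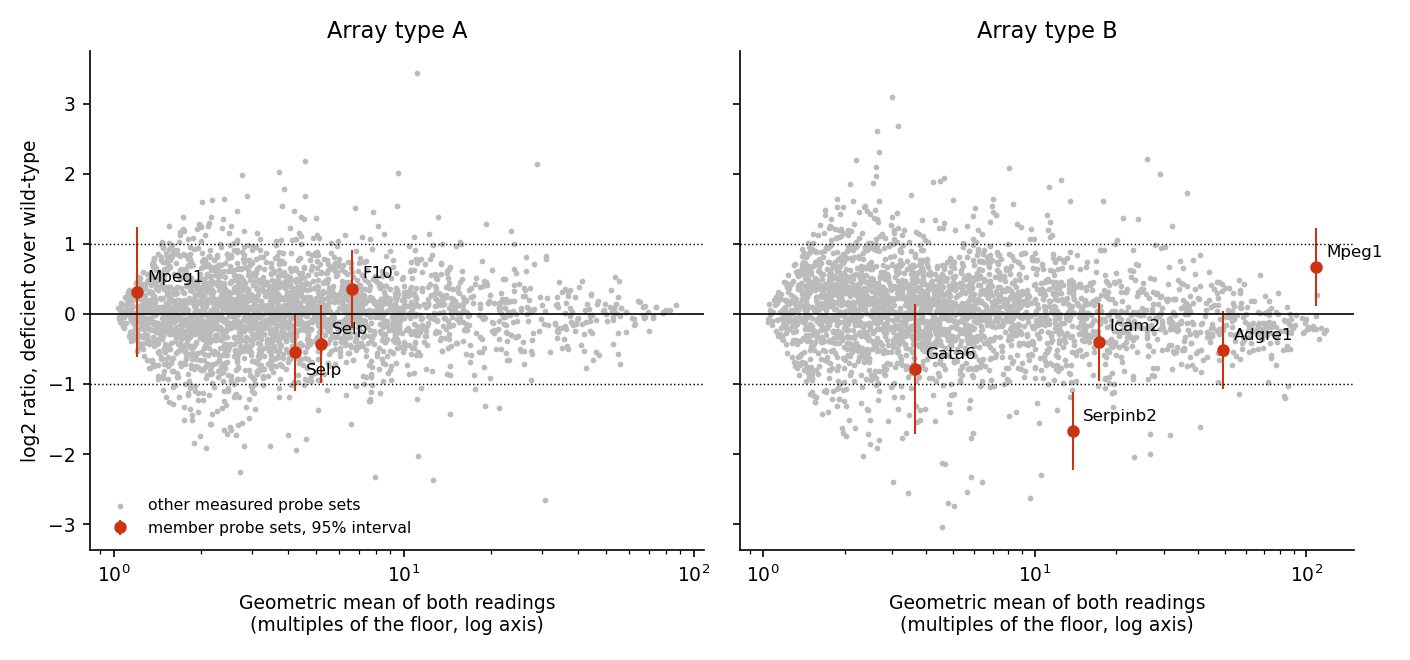
Log2 ratio of deficient over wild-type signal (vertical axis) against the geometric mean of both readings in multiples of the floor (log axis), for measured probe sets of array types A and B (grey) and the member probe sets (red, with 95% intervals from repeat probe sets); dotted lines mark 2-fold. Serpinb2 lies beyond 2-fold at -1.67 with an interval that ends at -1.12, and the interval of Mpeg1 on type B, around 0.67, lies above 0.

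Set against Adgre1, the 6 other genes lay on both sides of it. The ratio of Serpinb2 was 2.23-fold below that of Adgre1, a difference of -1.16 log2 units (95% interval -1.94 to -0.37). Gata6 stood at -0.27 from Adgre1 (-1.35 to 0.81), Selp at 0.09 (-0.69 to 0.87) and Icam2 at 0.12 (-0.66 to 0.90). These 3 genes were therefore not distinguished from the general marker by this error, and their intervals allow differences of over 0.6 either way. F10 lay 0.88 above Adgre1 (0.09 to 1.66), an interval that begins close to 0. Under loess scaling F10 was at 0.32 and Adgre1 at -0.38. Quantile normalization gave 0.30 and -0.41, and scaling to bacterial controls 0.56 and -0.17. Under each of these scalings the gap is one that this error does not distinguish from 0. Equal medians set F10 and Adgre1 further apart, at 0.42 and -0.69. For Selp and F10, read on type A, these differences cross array types, since Adgre1 and the Mpeg1 probe set used are on type B. Mpeg1 lay 1.18 above it (0.40 to 1.97), so the values depend on the general marker used: against Mpeg1, Gata6 stood at -1.46, Selp at -1.09, Icam2 at -1.07 and F10 at -0.31, so that F10 lay above one general marker and below the other. The lowest and the highest of the 7 ratios were 2.34 log2 units apart.

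As a list, 5 of the 7 measured genes were below 0, with a median log2 ratio of -0.43. Without Adgre1 and Mpeg1 it was 4 of 5, with the same median. Over all 3131 genes with a ratio 49.0% were below 0 and the median was 0.011. In RNA of mixed cells, fewer cells of a type and less RNA per cell cannot be told apart. The count came mostly from type B, where the measured genes other than Mpeg1 were below 0. On type A alone, where Selp, F10 and the dim Mpeg1 probe set had a ratio and Gata6 a bound, 1 of 3 was below 0 and the median was 0.31. Leaving out probe sets with a letter suffix such as _s_at, which can match related transcripts, removed Serpinb2 and Adgre1 and left Gata6 with its type A bound of -1.07 in place of a ratio. The 4 genes that still had a ratio, Icam2, Selp, F10 and Mpeg1, had a median of -0.045, to which Gata6 did not contribute.

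A list of 20 further genes known from resident peritoneal macrophages was chosen with earlier results of these data known. Of these genes 11 had a probe set, and all 11 had a ratio. Of the 11 measured, 9 were below 0, against 49.0% of all genes with a ratio, and their median was -0.29. Only 1 was lower by 2-fold or more, against 3.67% of all genes with a ratio. This was Nt5e, the ecto-enzyme CD73 that makes adenosine, which read 2012 in wild-type cells and 866 in deficient ones, 2.32-fold lower and near the floor in the latter. Cd9, a tetraspanin, read 10223 and 5513 (-0.89). Alox15, a lipoxygenase typical of these cells, read 13661 and 8262 (-0.73). Cd5l, a secreted scavenger receptor protein, read 22316 and 13828 (-0.69), and its other probe set, at 2776 and 783, was at least 2.68-fold lower. The highest was Cd93, a surface glycoprotein, at 24947 and 32195 (0.37). Fn1, fibronectin, had ratios of -0.17 and 0.10 by its probe sets and was counted below 0 by the first. The remaining genes were nearer 0 than Cd5l. Itga6 (-0.32), Thbs1 (-0.29), Saa3 (-0.22) and Tgfb2 (-0.080) were below 0, and Lrg1 (0.046) was above.

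**Figure D3:**
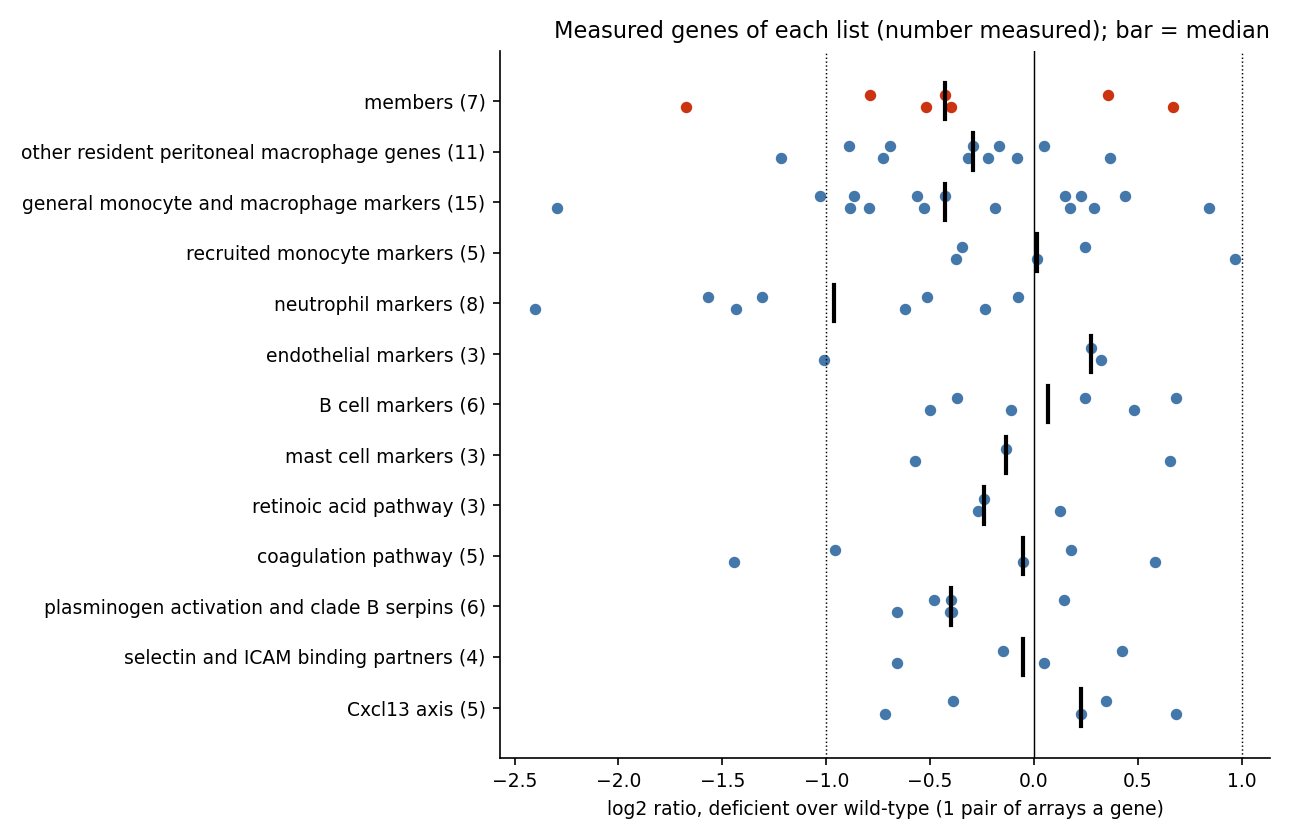
Log2 ratio of deficient over wild-type signal for each measured gene of the lists with at least 3 measured genes, with the number measured in brackets, the list median as a black bar and 2-fold as dotted lines; members are in red. The members (median -0.43), the other resident genes (-0.29) and the general macrophage markers (-0.43) each hold genes on both sides of 0, and the neutrophil markers (-0.96) all lie below it.

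Genes of plasminogen activation and other clade B serpins were mostly below 0, none by 2-fold. Of 14 such genes, 10 had a probe set and 6 a ratio. Of the 6, 5 were below 0 (median -0.40), against 49.0% of all genes with a ratio, and none was past 2-fold. Among the 5, Anxa2 had ratios of -0.39 and 0.038 by its probe sets. Plau, the urokinase that Serpinb2 inhibits, read 1425 and 1078 (-0.40), and its receptor Plaur had ratios of -0.40 and -0.73 by its probe sets. S100a10, a plasminogen receptor subunit, was lowest at -0.66, and Serpinf2, the plasmin inhibitor, highest at 0.15.

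Of 19 coagulation genes besides F5 and F10, 13 had a probe set and 5 a ratio, 3 of them below 0 (median -0.055). Fgl2, a membrane prothrombinase, read 3181 in wild-type cells and 1168 in deficient ones, 2.72-fold lower. Pros1, the anticoagulant protein S, read 12286 and 6328 (-0.96). F7, whose product with tissue factor activates factor X, read 4594 and 6891 (0.58), so F7 and F10 were both higher in deficient cells. F3, the tissue factor gene, read 229 and -144, below the floor in both genotypes.

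The partners of P-selectin and ICAM-2 went both ways. Of 9 listed, 7 had a probe set and 4 a ratio, 2 of them below 0 (median -0.051). Selplg, the P-selectin ligand of leukocytes, was lowest, at 41467 and 26216 (-0.66), and Cd44, the hyaluronan receptor, highest, at 8781 and 11789 (0.43). Itgal, the alpha chain of LFA-1, read -4 in wild-type cells and 2777 in deficient ones, at least 2.68-fold higher.

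Of the 7 other GATA factors and their cofactors, all with a probe set, Gata2 alone had a ratio, at 1268 and 1426 (0.17), and 5 were below the floor in both genotypes. In the retinoic acid pathway upstream of Gata6, 9 of 16 genes had a probe set and 3 a ratio, of which 2 were below 0 (median -0.24). The lowest was Rarg, a retinoic acid receptor, at -0.27, and the highest Crabp2, a retinoic acid carrier, at 0.13. The other Rarg probe set, at 3431 and 3516, had a ratio of 0.035. Aldh1a2, the enzyme that makes retinoic acid in the tissue around these macrophages, was below the floor in both genotypes, at -1141 and -159. Rxra and Rxrb, the partners of the retinoic acid receptors, had log2 bounds of 2.34 and 3.58 above the floor in deficient cells, with wild-type values under 0 (-1337 and -3287). Around Cxcl13, the B cell attractant of body cavities, 9 of 11 genes had a probe set and 5 a ratio, 2 of them below 0 (median 0.23). Its receptor Cxcr5 was highest, at 831 and 1333 (0.68), near the floor, and Ltb, a lymphotoxin chain, lowest, at 4980 and 3033 (-0.72). Cxcr4, the receptor of another homeostatic chemokine, had ratios of 0.23 and 1.79 by its probe sets, a gap of well over the repeat error.

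Markers of the other cells in the lavage read as follows, and their part in the member ratios was not tested. Each summed signal covers the genes of a list with a ratio and those with a bound. The sums add readings across probe sets and array types, with values below 0 set to 0. The brightest probe sets therefore weigh most in them. General monocyte and macrophage markers had 15 ratios, 9 of them below 0 (median -0.43), from Mrc1, the mannose receptor, at -2.30 to Csf1r, the receptor of the macrophage growth factor, at 0.84, and Cd14, a lipopolysaccharide co-receptor, was also past 2-fold at -1.03. Their summed signal was 491942 in wild-type cells and 404080 in deficient ones, of which Cd14 made up 84127 and 41219. Among these markers Msr1, read at -0.87, had another probe set at -1.58, past 2-fold. Lgals3, read at -0.19, had another with a bound of 0.65 in the other direction. Of 10 recruited monocyte markers 5 had a ratio (median 0.012, 2 below 0), led by the chemokine receptor gene Ccr2 at 0.97 and with Chil3 lowest at -0.37. Their summed signal was 99093 and 112990. The 8 neutrophil markers with a ratio were all below 0 (median -0.96). With the bounded Cxcr2 and Ltf, the summed neutrophil signal was 203134 and 147030. Of these Il1r2, Ngp, Ly6g and Csf3r were past 2-fold, at -2.40, -1.57, -1.44 and -1.31, Cxcr2 was at least 2.05-fold lower, and S100a8 was nearest 0 at -0.079. Of 6 B cell markers with a ratio 3 were below 0 (median 0.067), from Ighm at -0.50 to Cr2 at 0.68, and the sums with the bounded Cd22 were 59053 and 50745. No T or NK cell marker had a ratio, and Cd3e was at least 1.83-fold lower.

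Selp and Icam2 can also come from endothelium and platelets. Of 9 endothelial markers with a probe set, 3 had a ratio (median 0.28, 1 below 0), and the summed signal of these and of 2 bounded genes was 10998 in wild-type cells and 11795 in deficient ones. Kdr read 4228 and 5291 (0.32), Tek 1129 and 1367 (0.28), and Eng, a TGF-beta co-receptor that macrophages also make, 4509 and 2237 (2.02-fold lower). Tie1 and Emcn were above the floor in deficient cells only, with log2 bounds of 1.05 and 0.50. Pecam1, Cdh5, Flt1 and Sele were below it in both genotypes. Whether endothelial RNA contributed to Selp or Icam2 was not tested. For platelets only Gp5 had a probe set, at -114 and 170, below the floor. Wt1, a mesothelial transcription factor, read 1493 and 1357 (-0.14), and 5 of the 7 mesothelial markers with a probe set were below the floor in both genotypes. Mast cell markers had a median of -0.14 over 3 genes, from Kit at -0.57 to Mcpt4 at 0.65. Of the eosinophil markers Ccr3 alone had a ratio, 3.78-fold lower.

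The direction of each of the 7 member ratios held under every scaling tried. Scaling to the bacterial hybridisation controls, which put the overall probe set median at 0.21 on type A and 0.36 on type B, gave the least negative values. Under it Serpinb2 stood at -1.33, Gata6 at -0.44, Adgre1 at -0.17 and Icam2 at -0.052, while Mpeg1 passed 2-fold at 1.01. Equal medians, which moved the median of type B to -0.14, gave the lowest value of Serpinb2 at -1.85. Serpinb2 remained past 2-fold in each of the 8 alternatives that kept its probe set.

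**Figure D4:**
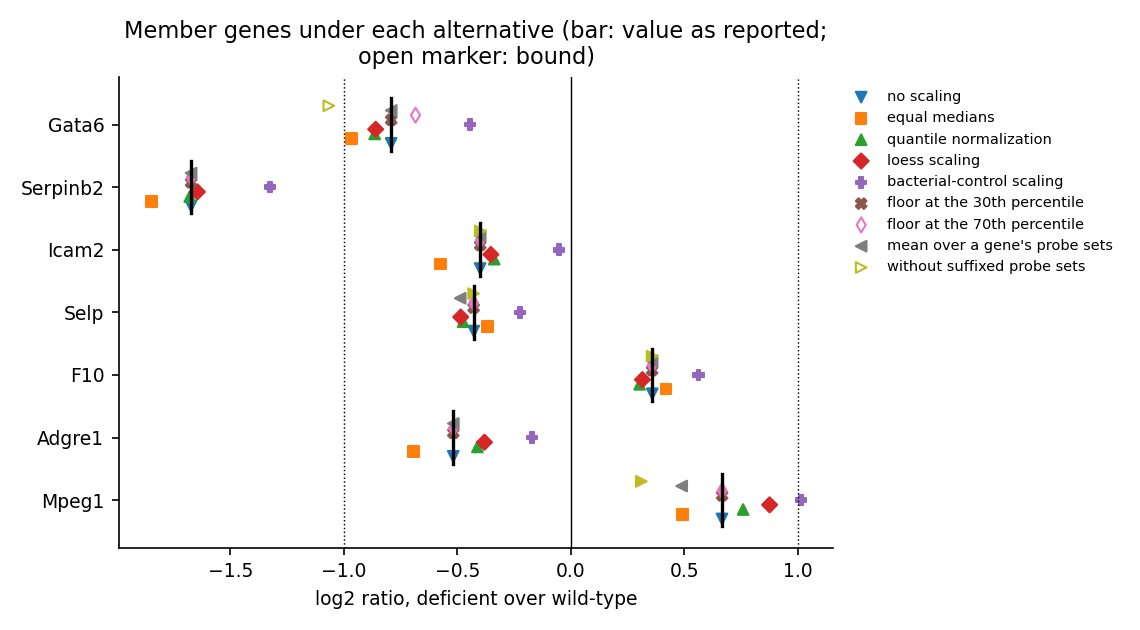
Log2 ratio of deficient over wild-type signal for the 7 measured genes under 9 alternatives of scaling, floor and probe set choice; black bars mark the values reported, open markers bounds and dotted lines 2-fold. The alternatives keep each gene on its side of 0, and Serpinb2 ranges from -1.85 to -1.33.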

How the data were processed

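Intensities of 4 one-colour Affymetrix arrays were analysed as deposited, on a linear scale with 20.7% to 29.3% of values below 0, from the values themselves. Software, background correction and scaling by the authors were not given in the sources used here. Groups came from titles; on the deficient type B array only the title, not the source name, gives the genotype. Each type held 6529 (A) and 6540 (B) probe sets besides controls. Platform annotation gave 7542 probe sets 1 gene symbol, 224 several and 5303 none; 7525 matched a RefSeq gene ID and 0 symbols changed.

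Within a type, arrays were scaled to a common mean after leaving out the top and bottom 2%. A gene was read by its measured probe set brightest relative to the floor. Named genes were the members, Cebpe, and from the lists those past 2-fold and each list's extremes. Others are named by role or to complete a list, chosen after their values were seen. Members and lists were chosen with earlier results of these data known. Alternatives were other scalings (none, equal medians, quantile, loess with span 0.3, bacterial controls), the 30th or 70th percentile as floor, 3-fold, the mean over probe sets, no suffixed probe sets and 1 array type. The number of arrays limits the precision. The procedure was tested on simulated data. Python 3.11.15, numpy 2.4.6, pandas 2.3.3, statsmodels 0.14.6 and matplotlib 3.10.9 were used.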

Additional observations from a re-analysis of the deposited data

How the results depend on the processing

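No paired analysis was possible because each genotype has 1 array of each type and the labels give no replicate numbers, and for the same reason no array could be left out. Of 11 alternatives 9 kept the count of member genes below 0 within 1.5 times; it was 2 of 4 without suffixed probe sets, where Gata6 had only its bound of -1.07, and 1 of 3 on type A alone. The median, -0.43, was -0.045 and 0.31 there. The count past 2-fold, 1, was 2 under bacterial-control scaling, and 0 without suffixed probe sets and on type A alone, where Serpinb2 has no probe set. The median difference of the 6 other genes from Adgre1, 0.10, was -0.038 under loess scaling and -0.078 on type B alone, so its sign is not fixed. It could not be computed where Adgre1 was left out. With the floor at the 70th percentile Gata6 had a bound of -0.68 in place of its ratio. Gata6 on both types and Mpeg1 on type A were within 5 times the floor, which limits their precision.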
